A study of Homo sapiens with 17 samples.

Results

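NGFR (ENSG00000064300, chromosome 17) encodes the p75 neurotrophin receptor, also called TNFRSF16. It was found by its symbol in the authors' deposited tables and is 1 of 1400 genes listed in at least 1 of them. The 4 tables give comparisons in PC3, an established human prostate cancer cell line, of 2 lentiviral short hairpin RNAs (shRNAs) against MED25 and 2 retroviral shRNAs against ETV4. MED25 shRNA A, MED25 shRNA B, ETV4 shRNA A and ETV4 shRNA B had 3 RNA-seq libraries each, the lentiviral control had 3 and the retroviral control 2, all from early passage cells taken 7 days after infection. The labels give a luciferase shRNA for the lentiviral control and a control shRNA for the retroviral one, whereas the design text names an empty vector. All groups are infected cultures of the same line, and the labels do not say whether the libraries of a group came from separate cultures. The tables hold no level and no value per library, so the depth and the spread between replicates are unknown, and markers of the PC3 line could not be checked. NGFR was chosen by its log2 ratio, rank and score in the MED25 tables and its absence from the ETV4 tables, and these are therefore given as a description with no test.

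NGFR binds the neurotrophins, and binds their uncleaved precursors together with the co-receptor sortilin. It belongs to the TNF receptor superfamily, carries an intracellular death domain without enzyme activity, and signals through adaptors to JNK, NF-kB and apoptosis. It can also act beside other neurotrophin receptors, and its ectodomain is shed before gamma-secretase cuts the remaining stub. In the normal human prostate NGFR is found in basal epithelial cells, and its loss has been described in prostate cancers. MED25 is a subunit of Mediator, which links DNA-bound activators to RNA polymerase II, and ETV4 is an ETS-family activator that can bind MED25. The title of the series names genes that both may regulate together as the question.

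NGFR fell about equally with both MED25 shRNAs. In the authors' deposited table for MED25 shRNA A its log2 ratio of knockdown over control was −1.64, which is 32.0% of the control level or 3.13-fold lower. The authors' deposited table for MED25 shRNA B had it at −1.62, which is 32.5% of the control level or 3.07-fold lower. NGFR was in neither ETV4 table. The smallest decrease that the authors' deposited ETV4 tables list was −0.59 with either shRNA, or 1.50-fold, and their lowest score was 20.1. A gene outside a table may have risen, fallen by less than this or missed the score, so NGFR cannot be called unchanged after loss of ETV4. The difference between MED25 and ETV4 knockdown was not tested.

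The NGFR values were nearly equal although the targeted transcript was not lowered equally. The authors' deposited tables have MED25 itself at −0.96 for shRNA A (51.6% of its control level) and at −1.71 for shRNA B (30.5%). NGFR therefore lay below MED25 on the scale of percent of control with shRNA A, and close to it with shRNA B. The authors' deposited ETV4 tables, which do not list NGFR, have ETV4 at 26.1% of its control level for shRNA A and at 15.8% for shRNA B. Both MED25 comparisons share the 3 lentiviral control libraries, so a high NGFR value in these controls would appear in both. That share was not tested, as no library values are in the tables.

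**Figure D1:**
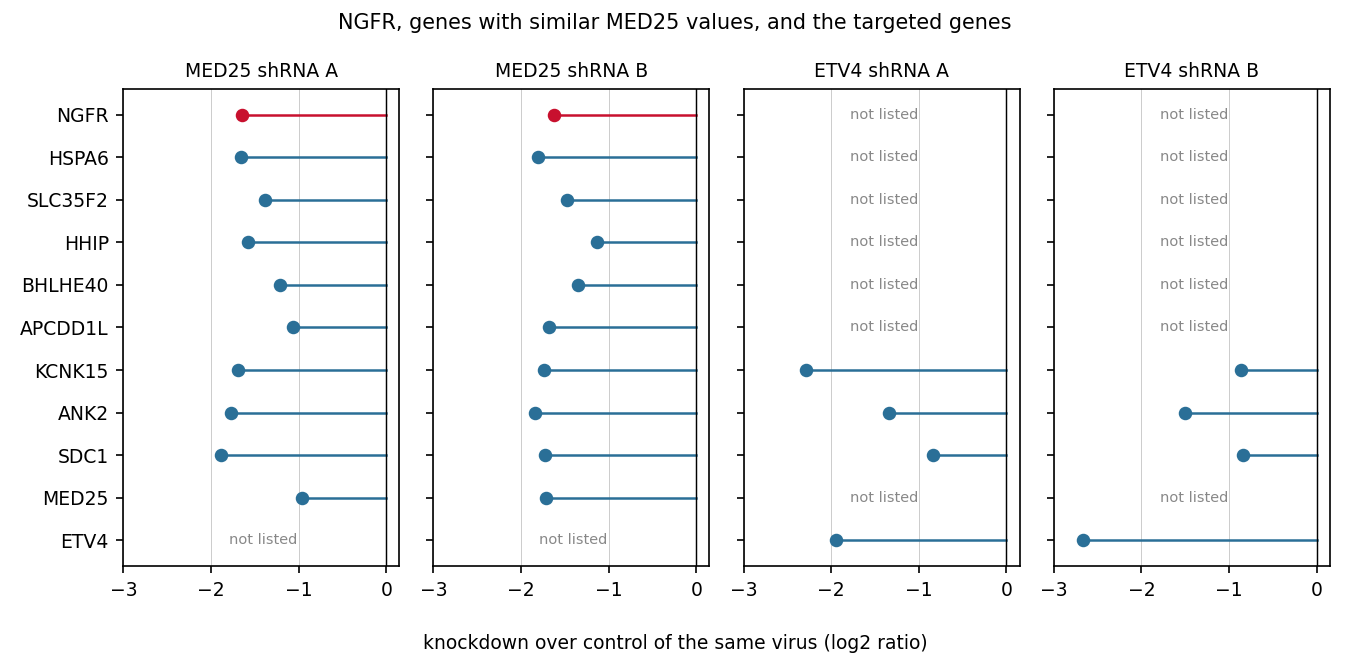
Log2 ratio of knockdown over the control of the same virus in the authors' deposited tables (x axis) for NGFR in red, the 5 genes nearest to it, 3 genes near it that both ETV4 tables list, and the targeted genes, with 1 panel per shRNA. NGFR reaches −1.64 and −1.62 with the MED25 shRNAs and, like the 5 genes below it, is marked as not listed in both ETV4 panels.

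NGFR was among the largest decreases with each MED25 shRNA. By log2 ratio it was number 18 of 786 genes in the authors' deposited table for shRNA A, with a larger decrease in 2.16% of listed genes. In the authors' deposited table for shRNA B it was number 15 of 374, with a larger decrease in 3.74% of genes, including MED25 itself. It was lowered more than 2-fold in both, as were 24.0% of all listed genes with shRNA A and 20.1% with shRNA B. The authors' deposited tables had a median log2 ratio of −0.78 for shRNA A and −0.77 for shRNA B. The authors' deposited table for shRNA A places NGFR between CHAC1, a glutathione-degrading enzyme, at −1.65, and HHIP, a hedgehog-binding protein, at −1.58. The authors' deposited table for shRNA B places it between fibronectin (FN1) at −1.62 and the neurotensin receptor NTSR1 at −1.55. CHAC1 was not listed with shRNA B and NTSR1 was not listed with shRNA A.

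The score that the authors give with each ratio ranked NGFR lower. The headers call this score an adjusted p but do not state its scale, and its values run upward from 20.3 in both MED25 tables, so it serves here only to order genes within a table. The authors' deposited tables score NGFR at 61.4 for shRNA A and at 85.6 for shRNA B. Ordered by score it was number 427 of 786 for shRNA A and number 132 of 374 for shRNA B. Of the genes lowered more than NGFR, only CHAC1, at 54.4, had a lower score with shRNA A, going by the authors' deposited table, and none did with shRNA B. Among genes lowered at least 2-fold, NGFR was number 110 of 189 by score for shRNA A and number 57 of 75 for shRNA B, and the authors' deposited tables give these genes median scores of 76.4 and 150. Within 0.15 of the log2 ratio of NGFR, a range chosen after the values were seen, the authors' deposited table for shRNA A has 22 other genes, of which 17 had a higher score and 5 (CA2, CBS, CHAC1, MMP3 and SLC7A11) a lower one. In the authors' deposited table for shRNA B all 10 genes in that range had a higher score. The median scores in the range were 121 and 303. The authors' deposited tables score the inducible HSP70 gene HSPA6 at 222 for shRNA A and 281 for shRNA B, and the solute carrier gene SLC35F2 at 1096 and 1253. Going by the authors' deposited tables, HSPA6 with shRNA B, at −1.81, and SLC35F2 with shRNA A, at −1.38, lie outside the range. Within this range of 0.15, the score of NGFR was the lowest with shRNA B, and in the lower part with shRNA A. With shRNA B it was also below the scores of all genes lowered more than NGFR. Some genes outside the range with smaller decreases scored lower than NGFR with shRNA B, such as TH, at −1.38 with a score of 71.5. The tables hold neither the level nor the spread that would go with the score of NGFR.

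**Figure D2:**
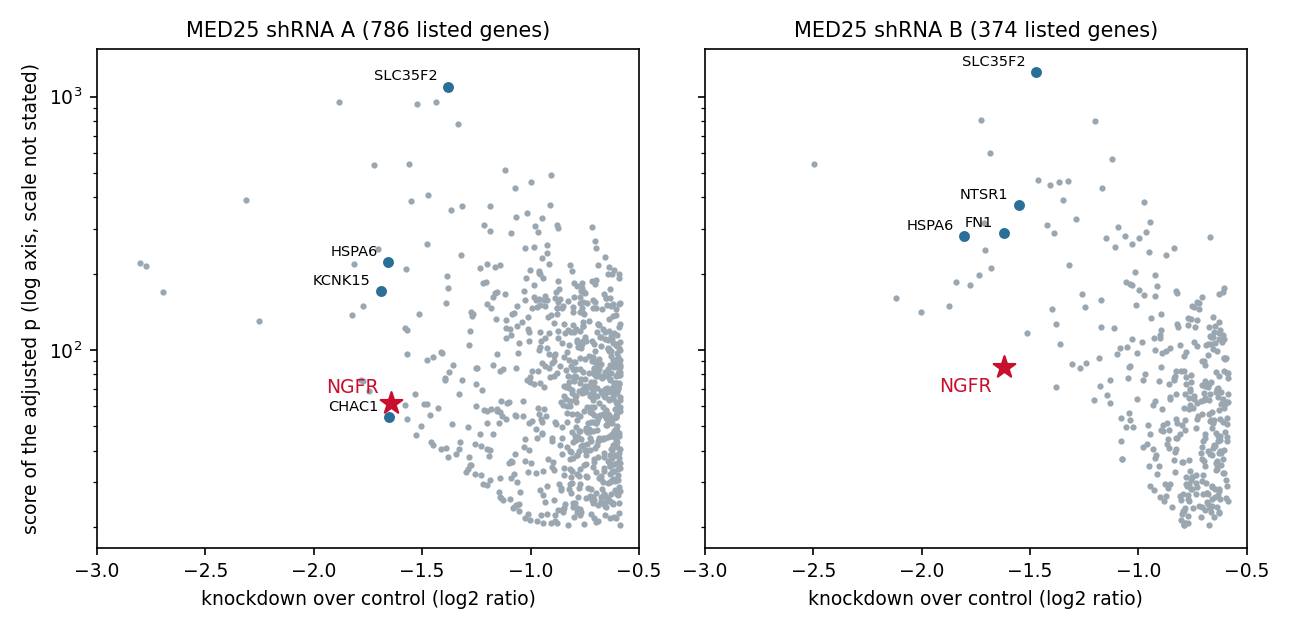
Score of the adjusted p (y axis, log scale, units not stated by the authors) against the log2 ratio of knockdown over control (x axis) for all genes listed with MED25 shRNA A, left, and MED25 shRNA B, right, each point being 1 gene. The star marks NGFR, at scores of 61.4 and 85.6; with shRNA B all 10 genes within 0.15 of its log2 ratio lie above it, and with shRNA A 17 of 22 do.

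NGFR was one of 153 genes that both MED25 tables list, which are 19.5% of the table for shRNA A and 40.9% of that for shRNA B. Ordered by the mean of both log2 ratios it was number 11, with a mean of −1.63 against a median of −0.88 over the 153 genes, from the authors' deposited tables. Its 2 values differed by 0.024 on the log2 scale. The median difference over the shared genes was 0.18, the largest was 1.89, and 10 genes had a smaller one than NGFR. Whether the difference of NGFR, or that of any other gene, lies within the error of the ratios is unknown, since the tables carry no error. MED25 itself is one of the 153 genes, and it is in neither ETV4 table.

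Most genes with a larger mean decrease than NGFR were also listed after loss of ETV4. Of these 10 genes, 7 were in at least 1 ETV4 table. Among all 153 shared genes, which include these, 28 were, or 18.3%. The cutoff is the value of NGFR itself, and NGFR was chosen partly for its absence from the ETV4 tables. These counts are therefore a description, and the overlap was not tested. IGF2BP1, NOG, AC002456.2, ANK2, SDC1 and KCNK15 were in both ETV4 tables and AWAT2 was in that for ETV4 shRNA A. NGFR and 3 others were in neither. These were ARC, an immediate early gene of the synapse, the small heat shock protein CRYAB, and HSPA6. Among the 125 shared genes absent from both ETV4 tables, NGFR was number 4 by mean decrease, behind these 3. The MED25 and ETV4 comparisons have no control library in common.

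**Figure D3:**
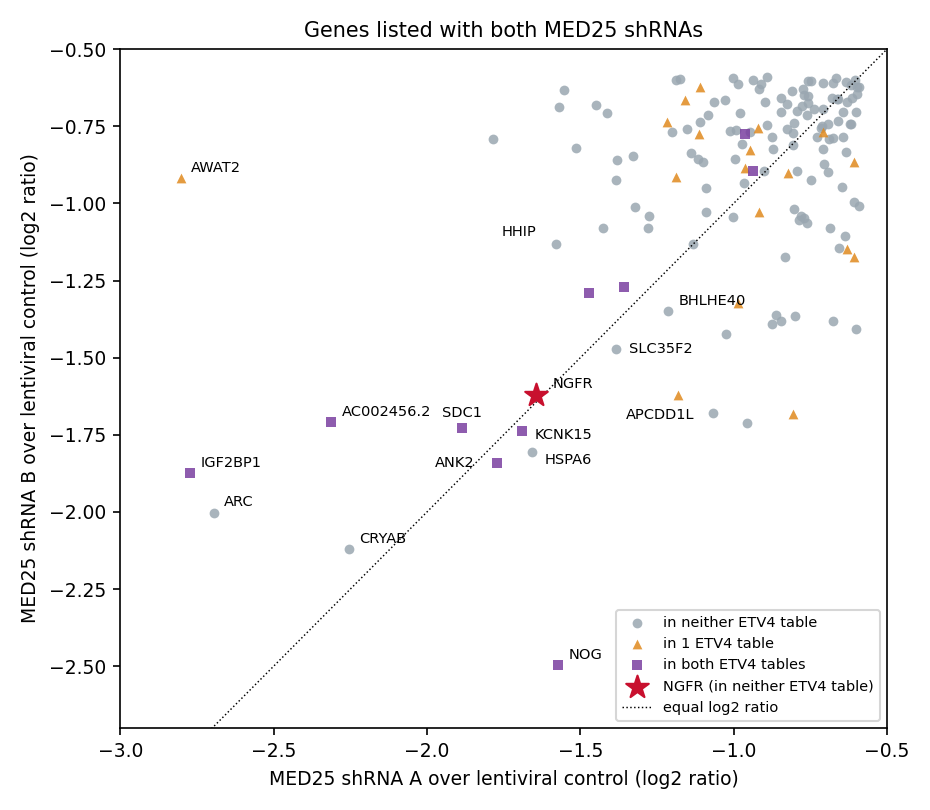
Log2 ratio of knockdown over control with MED25 shRNA A (x axis) and MED25 shRNA B (y axis) for the 153 genes in both of the authors' deposited MED25 tables, with shape and colour for the number of ETV4 tables that also list the gene. The star marks NGFR on the dotted line of equal ratios, at −1.64 and −1.62, beside KCNK15, ANK2 and SDC1, which both ETV4 tables list, and HSPA6, which neither lists.

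The genes most like NGFR were sought among the 124 others in both MED25 tables and neither ETV4 table, by the Euclidean distance between pairs of log2 ratios, which rests on 2 comparisons only. HSPA6 was nearest, at a distance of 0.19, with log2 ratios of −1.66 and −1.81 for MED25 shRNA A and B in the authors' deposited tables. SLC35F2 followed at 0.30, with −1.38 and −1.47 in the authors' deposited tables. Both, like NGFR, had decreases of similar size with the 2 shRNAs, which follows from choosing genes near its pair of ratios. HHIP was at a distance of 0.49, and the authors' deposited tables give it −1.58 for shRNA A and −1.13 for shRNA B. BHLHE40, a basic helix-loop-helix repressor, was at 0.51, and APCDD1L, a paralogue of the Wnt inhibitor APCDD1, at 0.58. The median distance over the 124 genes was 1.14. Without the condition on the ETV4 tables, KCNK15, a potassium channel gene, was nearer to NGFR than any of these, at 0.13, and the authors' deposited MED25 tables have it at −1.69 and −1.74. KCNK15 differed from NGFR in being listed in the authors' deposited ETV4 tables, at −2.29 for shRNA A and −0.86 for shRNA B.

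Few other genes of neurotrophin receptor signalling were listed. The lists held 107 genes in 8 groups, of which the MED25 tables list 3 (shRNA A) and 4 (shRNA B), and the ETV4 tables list 3 (shRNA A) and 0 (shRNA B). These counts were 2.80%, 3.74%, 2.80% and 0% of the lists. Of the 19951 annotated protein-coding genes, 3.44% and 1.61% were in the MED25 tables for shRNA A and shRNA B, and 2.17% and 0.456% in the ETV4 tables for shRNA A and shRNA B. The annotated genes stand in for the number that the authors tested, which the labels and headers do not give. At counts of 0 to 4 genes these shares do not set the lists apart from other genes. In at least 1 table, 7 of the 107 genes were listed, against 6.14% of all protein-coding genes. The counts given below for single groups are too small to set against that share.

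The neurotrophin genes BDNF, NTF3 and NTF4, the receptor genes NTRK2 and NTRK3, sortilin (SORT1) and the Nogo receptor partners LINGO1 and RTN4R were in none of the 4 tables. Of the 9 neurotrophin and protease genes, the authors' deposited tables list the stromelysin gene MMP3, at −1.50 for MED25 shRNA A and −0.73 for ETV4 shRNA A. Of the 8 genes of ectodomain shedding and gamma-secretase, 1 was listed. The authors' deposited table for ETV4 shRNA A has this gene, the gamma-secretase subunit APH1B, at −0.83.

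Adaptors and outputs of NGFR were listed with 1 MED25 shRNA each, apart from JUN. Of 17 adaptor genes, the authors' deposited table for MED25 shRNA A has ZNF274, the human counterpart of a zinc finger protein that binds the receptor in the mouse, at −0.96. The authors' deposited table for MED25 shRNA B has TRAF6, a ubiquitin ligase recruited to the receptor, at −0.69, and the kinase IRAK1, which acts with TRAF6, at −0.61. Of 20 genes downstream, the authors' deposited tables list JUN, the AP-1 subunit that JNK phosphorylates, at −0.60 for MED25 shRNA A and −1.41 for MED25 shRNA B. JUN was the only one of the 107 genes in both MED25 tables. Its 2 values lay farther apart than those of NGFR, which held for most of the 153 shared genes.

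Of 28 other TNF receptor superfamily genes, 1 was listed. This count is too small to set against the 6.14% of all protein-coding genes in at least 1 table. The authors' deposited tables have TNFRSF9, a costimulatory receptor of T cells, at −0.78 for MED25 shRNA B and −1.22 for ETV4 shRNA A. None of the 9 transcription factors described at NGFR in other tissues was listed, EGR1, EGR3 and SOX10 among them. None of 11 Schwann cell and neural crest markers was listed either. Of 10 prostate basal markers, the authors' deposited tables have the integrin gene ITGB4 at −0.85 for MED25 shRNA B and the keratin gene KRT15 at −0.64 for ETV4 shRNA A. Of 10 luminal markers, the authors' deposited table for MED25 shRNA B has KRT19 at −0.61. The tables list 0 of the 31 marker genes for MED25 shRNA A, 2 for MED25 shRNA B, 1 for ETV4 shRNA A and 0 for ETV4 shRNA B, counts too small to set against the shares of all protein-coding genes given above. The tables cannot show which of these genes PC3 cells express.

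**Figure D4:**
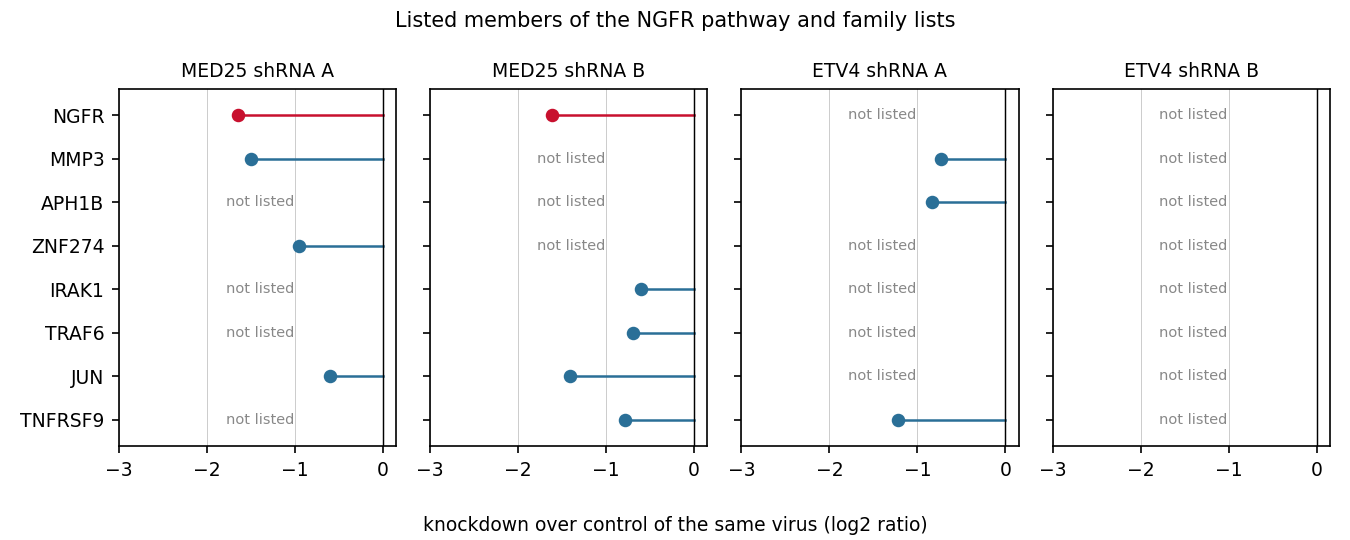
Log2 ratio of knockdown over the control of the same virus (x axis) for NGFR in red and, in blue, the 7 of 107 genes of its pathway and family lists that the authors' deposited tables list, with 1 panel per shRNA. Apart from NGFR, JUN alone has a value in both MED25 panels, at −0.60 and −1.41, and the panel for ETV4 shRNA B has none.

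The locus around NGFR was examined by gene order in GENCODE release 29, and no coordinates are given because that annotation and the hg19 alignments differ in build. NGFR has 3 annotated transcripts, and the tables give 1 value for the gene. The longest has 6 exons, 3417 bases and a coding sequence of 427 codons. Another 6-exon transcript of 1840 bases starts within the gene and has its first coding base in exon 3. Which transcripts fell with MED25 shRNAs cannot be read from the tables. The gene overlaps 3 others, the antisense gene AC006487.1, also called NGFR-AS1, the opposite-strand AC015656.1, and the microRNA gene MIR6165 in intron 4. None of the 3 was listed. No source used here says whether counting used strand, so reads from NGFR and its opposite-strand partners may not have been told apart.

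In gene order, the 20 annotated genes around NGFR, 10 starting before it and 10 after, comprise these 3 overlapping genes, 9 others before it and 8 after it. None of the 20 was listed, among them 6 protein-coding genes that include PHB, NXPH3, SPOP and KAT7. Of all annotated genes 2.30% were in at least 1 table, and of protein-coding genes 6.14%, so a count of 0 is near the share over all genes. The nearest listed protein-coding gene on one side was IGF2BP1, an RNA-binding protein, with 6 protein-coding genes between them. The authors' deposited tables give it −2.77 and −1.88 for MED25 shRNA A and B, and −2.04 and −2.48 for ETV4 shRNA A and B. On the other side it was the transporter gene ABCC3, with 26 protein-coding genes between, which the authors' deposited table for ETV4 shRNA A has at −0.63. IGF2BP1 and ABCC3 were singled out after their values were seen.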

How the data were processed

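The submitters' processing notes name Novoalign 3.08.02 and the genome build hg19 for the RNA-seq reads from PC3 cells. How reads were counted, whether by strand, and how libraries were scaled and tested is stated in no source used here. The authors deposited 4 tables, 1 per shRNA, each with a log2 ratio and an adjusted p per gene. The authors' adjusted p was treated as a score, because its scale is not stated in the file headers. It was used only to order and filter genes.

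For each target, the number common to the headers of its tables was taken as the control. MED25 ratios were then turned round, so that every value is knockdown over control. The sign of the targeted genes helped to set this direction. Every listed gene was then lower after knockdown. The deposited tables list no gene that rose, so such genes could not be analysed here.

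NGFR, the lists and the rules were chosen with earlier results of these data known. Named genes are NGFR, the targets, the 5 genes nearest to NGFR, its neighbours by ratio and by position, and every listed member of the lists. Genes above NGFR by mean decrease, genes near it without the ETV4 condition, and listed markers were added after their values were seen. So were genes named for a score below that of NGFR, TH among them. Some list members that are in none of the tables are also named. List symbols were matched to Ensembl identifiers through a gene name table, and 1 symbol, NRADD, had no match. Some list members are not reported here by name. A search for motifs in the promoter was not run, as the sequence table used holds no entry for NGFR. Ranking and distances were tested on simulated data. Computations used matplotlib 3.10.9, scipy 1.17.1, numpy 2.4.6 and pandas 2.3.3 under Python 3.11.15.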

Additional observations from a re-analysis of the deposited data

How the results depend on the processing

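The position of NGFR depends on which value orders the genes. By score in place of the log2 ratio, 54.2% of genes stood above it with MED25 shRNA A and 35.0% with shRNA B, against 2.16% and 3.74% by log2 ratio. Among the genes in both MED25 tables alone, an alternative chosen after seeing the data, 6.54% and 8.50% had a larger decrease; fewer genes with small decreases remain there. Taken from all listed genes of each MED25 table, the shares were 3.34% and 6.09% with a score of at least 50. There NGFR kept its positions of 18 and 15 among fewer genes. With protein-coding genes alone, again from all listed genes, the shares were 2.33% and 4.04%. Among list members lowered at least 2-fold, the count was 1 each with MED25 shRNA A, MED25 shRNA B and ETV4 shRNA A. With ETV4 shRNA B it was 0. These counts are out of 3, 4, 3 and 0 listed members. Of all listed genes, 189 of 786, 75 of 374, 115 of 495 and 20 of 98 were lowered at least 2-fold. Counts of 0 or 1 do not set the list members apart from these. Of the 5 genes most like NGFR, 2 remained when all genes in both MED25 tables were compared and 4 by largest absolute difference. No paired analysis was possible because the tables hold no values per library, and for the same reason no replicate could be left out. Depth is unknown, so what it limits cannot be given.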
